A study of Mus musculus with 4 samples.

Results

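The homeobox genes outside the Hox clusters were followed in mouse embryonic fibroblasts (MEFs), primary cells of connective tissue cultured from embryos of day 12.5 post coitum. The members are 48 named genes, chosen as homeobox factors known from the patterning of limb, head and trunk, with earlier results of these data known. Shares of called members set beside those of all genes are therefore not independent of the data. The members were found by symbol among the 23537 genes of the count table. The table holds 43 of them, and the RNA of *Lhx8*, *Isl1*, *Alx1*, *Irx4* and *Barx1* was not analysed here. The primary cells came from *Mbd4*-/- (KO) and *Mbd4*+/+ (WT) mice, both of strain C57BL/6, with 2 libraries per genotype from subconfluent cultures. *Mbd4* codes for a glycosylase that binds methylated CpG and removes thymine from T:G mismatches. The comparison asks which of these genes had another RNA level in the absence of MBD4. The samples of a genotype are described as independent, but the number of embryos or cultures behind them is not stated, so the p-values rest on a spread between samples that may be technical only.

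The homeobox codes for the homeodomain, a helix-turn-helix fold that binds short sequences with a TAAT core. Outside the Hox clusters the class holds the Msx, Dlx, LIM, paired-like, SIX-class and Irx families and the Meis, Pknox, Pbx and Tgif genes. Proteins of the Meis, Pknox, Pbx and Tgif genes bind DNA next to other homeodomain proteins. Many genes of the class are switched on in restricted fields of the embryo. Fibroblasts keep part of the pattern of the site they were taken from. Primary MEFs are a mix of mesenchymal cells from much of the embryo, and in such bulk RNA fewer cells of a type and less RNA per cell cannot be told apart.

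Promoter sequences are shown for 6 members that carry the comparison, to show how CpG-rich and CpG-poor starts look beside the RNA values. *Msx1*, *Msx2*, *Gsc* and *Emx2* are among the members with the largest rise, *Prrx1* is the most abundant member in KO cells, and *Lhx9* fell. Each runs 5′ to 3′ in the direction of the gene from 250 bases before the annotated start to 50 after it, from RefSeq on GRCm38.p6, with every CG in capitals.
Msx1, chr5:37824536-37824835, minus strand: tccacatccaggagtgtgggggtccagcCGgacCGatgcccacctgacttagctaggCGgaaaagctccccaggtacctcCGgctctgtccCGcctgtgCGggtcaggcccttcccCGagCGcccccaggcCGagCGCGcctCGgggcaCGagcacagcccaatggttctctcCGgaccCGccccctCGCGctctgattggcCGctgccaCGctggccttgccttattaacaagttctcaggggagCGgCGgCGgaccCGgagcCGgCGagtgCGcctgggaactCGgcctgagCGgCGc
Msx2, chr13:53472731-53473030, minus strand: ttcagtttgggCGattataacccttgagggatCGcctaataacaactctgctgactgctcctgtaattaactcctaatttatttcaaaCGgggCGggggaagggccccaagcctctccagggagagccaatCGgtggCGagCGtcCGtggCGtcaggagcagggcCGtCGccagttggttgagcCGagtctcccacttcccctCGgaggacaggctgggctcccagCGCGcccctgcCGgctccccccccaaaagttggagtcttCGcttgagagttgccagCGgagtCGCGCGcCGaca
Gsc, chr12:104473187-104473486, minus strand: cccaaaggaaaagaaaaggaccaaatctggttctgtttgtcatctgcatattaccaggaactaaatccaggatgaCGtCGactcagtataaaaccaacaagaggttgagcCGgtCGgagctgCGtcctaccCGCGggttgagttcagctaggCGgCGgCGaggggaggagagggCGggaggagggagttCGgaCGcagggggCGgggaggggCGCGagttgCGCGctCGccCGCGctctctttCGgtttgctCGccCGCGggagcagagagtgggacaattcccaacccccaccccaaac
Emx2, chr19:59458440-59458739, plus strand: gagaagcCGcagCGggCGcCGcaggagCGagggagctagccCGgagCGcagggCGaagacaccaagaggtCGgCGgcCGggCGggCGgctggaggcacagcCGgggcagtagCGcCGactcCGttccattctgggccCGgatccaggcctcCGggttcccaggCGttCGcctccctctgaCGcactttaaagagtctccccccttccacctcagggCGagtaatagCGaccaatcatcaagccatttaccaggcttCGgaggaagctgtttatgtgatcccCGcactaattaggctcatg
Prrx1, chr1:163313601-163313900, minus strand: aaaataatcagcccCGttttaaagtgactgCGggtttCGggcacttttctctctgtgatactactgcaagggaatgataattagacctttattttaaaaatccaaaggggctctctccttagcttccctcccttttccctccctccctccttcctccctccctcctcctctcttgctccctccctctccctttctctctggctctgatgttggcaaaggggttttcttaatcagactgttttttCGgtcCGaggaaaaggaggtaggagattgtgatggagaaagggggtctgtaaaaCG
Lhx9, chr1:138842395-138842694, minus strand: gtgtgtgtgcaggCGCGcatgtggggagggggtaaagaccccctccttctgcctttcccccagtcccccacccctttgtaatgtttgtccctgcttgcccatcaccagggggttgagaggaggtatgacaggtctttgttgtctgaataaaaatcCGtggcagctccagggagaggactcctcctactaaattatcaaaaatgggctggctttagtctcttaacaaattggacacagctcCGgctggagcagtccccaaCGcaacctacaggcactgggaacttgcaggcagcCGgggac
The first 4 hold between 22 and 29 CpG, while *Prrx1* and *Lhx9* hold 6 each.

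The libraries held 39108275 to 47567835 counts. Counts were scaled by TMM, which scales libraries on the bulk of their genes, and tested with edgeR's quasi-likelihood method. The p-values were adjusted by Benjamini and Hochberg over the 15538 genes that were not filtered out for low counts. CPM are counts scaled to the size of the library, and RPKM are CPM per kilobase of exons and are used wherever levels of different genes are compared. *Mbd4* itself had 373 and 302 against 663 and 630 counts, KO first here and wherever counts are set against each other (log2 fold change -0.99, SE 0.11, adjusted p = 2.8e-06). The sources used here do not name the exons that the targeted allele lacks, so this count does not check the deletion. *Ift122*, whose product carries cargo in cilia, had 7 and 3 against 1002 and 944 counts (log2 fold change -7.62, SE 0.21, adjusted p = 3.65e-12). Its loss and that of MBD4 cannot be told apart in these cells.

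All 12 fibroblast markers were detected in every library, and 8 of the 12 were lower in KO cells, with a summed level of 13970 and 15130 CPM against 26330 and 23700. The 6 endothelial markers summed to at most 1.19 CPM in any library. The 8 epithelial markers summed to 3.08 to 3.43 CPM in KO and 0.938 to 1.39 CPM in WT libraries, nearly all of the KO level from *Cdh1* (142 and 107 against 10 and 9 counts), while *Krt18* and *Cldn4* were at 0 in KO and *Krt5* at 0 in WT libraries. Of the 5 cartilage markers 4 were lower and 1 higher (summed 136 and 154 against 464 and 424 CPM), with *Col9a1* at 0 in both KO libraries. The 3 muscle markers summed to 2.17 and 2.81 against 8.78 and 6.30 CPM. The 6 neuronal markers summed to 33.0 to 36.7 CPM in all libraries, although *Stmn2* and *Syt1* rose and *Tubb3* fell. The 4 neural crest and glia markers summed to 3.60 to 3.81 CPM and the 5 blood and macrophage markers to 5.87 and 6.04 against 4.20 and 3.44 CPM. The part of these shifts in the members' results was not tested.

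Of the 43 members, 37 passed the filter on low counts. At an adjusted p of 0.05, 22 were higher in KO cells, where 34.3% of all tested genes were, 5 were lower, where 32.5% of all were, and 10 did not pass the test. Past stricter limits, an adjusted p of 0.01 with a log2 fold change above 2, *En2*, *Gsc*, *Shox2*, *Msx1*, *Msx2*, *Lhx2*, *Emx2* and *Barx2* were higher (8 of 37, against 5.79% of all tested genes). *Meox1* and *Lhx9* were lower past the same limits (2 of 37, against 3.15%). The median log2 fold change was 0.64 over the 37 members and 0.02 over all tested genes, and 29 members were above 0. In 33 members the KO and WT libraries did not overlap, as in 82.8% of all tested genes. When library totals replaced TMM, the median of all genes rose by 0.15 on the log2 scale, and 24 members were higher and 4 lower. Of the 15538 tested genes 6628 were then higher and 3964 lower.

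A gene can pass the filter through the genotype in which it is high. *En2*, *Gsc*, *Shox2* and *Gbx2* passed through the KO libraries alone and *Meox1* through the WT libraries alone, so for these 5 the filter itself favoured a difference. Among the 32 members above the limit in both genotypes 18 were higher and 4 lower, with a median log2 fold change of 0.52. Over the 13822 genes above it in both genotypes 33.8% were higher and 34.0% lower, with a median of 0.002. Past the stricter limits 5 of these 32 members were higher and 1 was lower, against 434 and 250 of the 13822 genes. The 6 members below the filter were low in both genotypes. *Dlx4* had the most counts, with 7 and 4 in KO and 4 and 18 in WT libraries, and *Dlx3*, *En1*, *Meox2*, *Pitx1* and *Irx6* had at most 2 counts in any library.

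**Figure D1:**
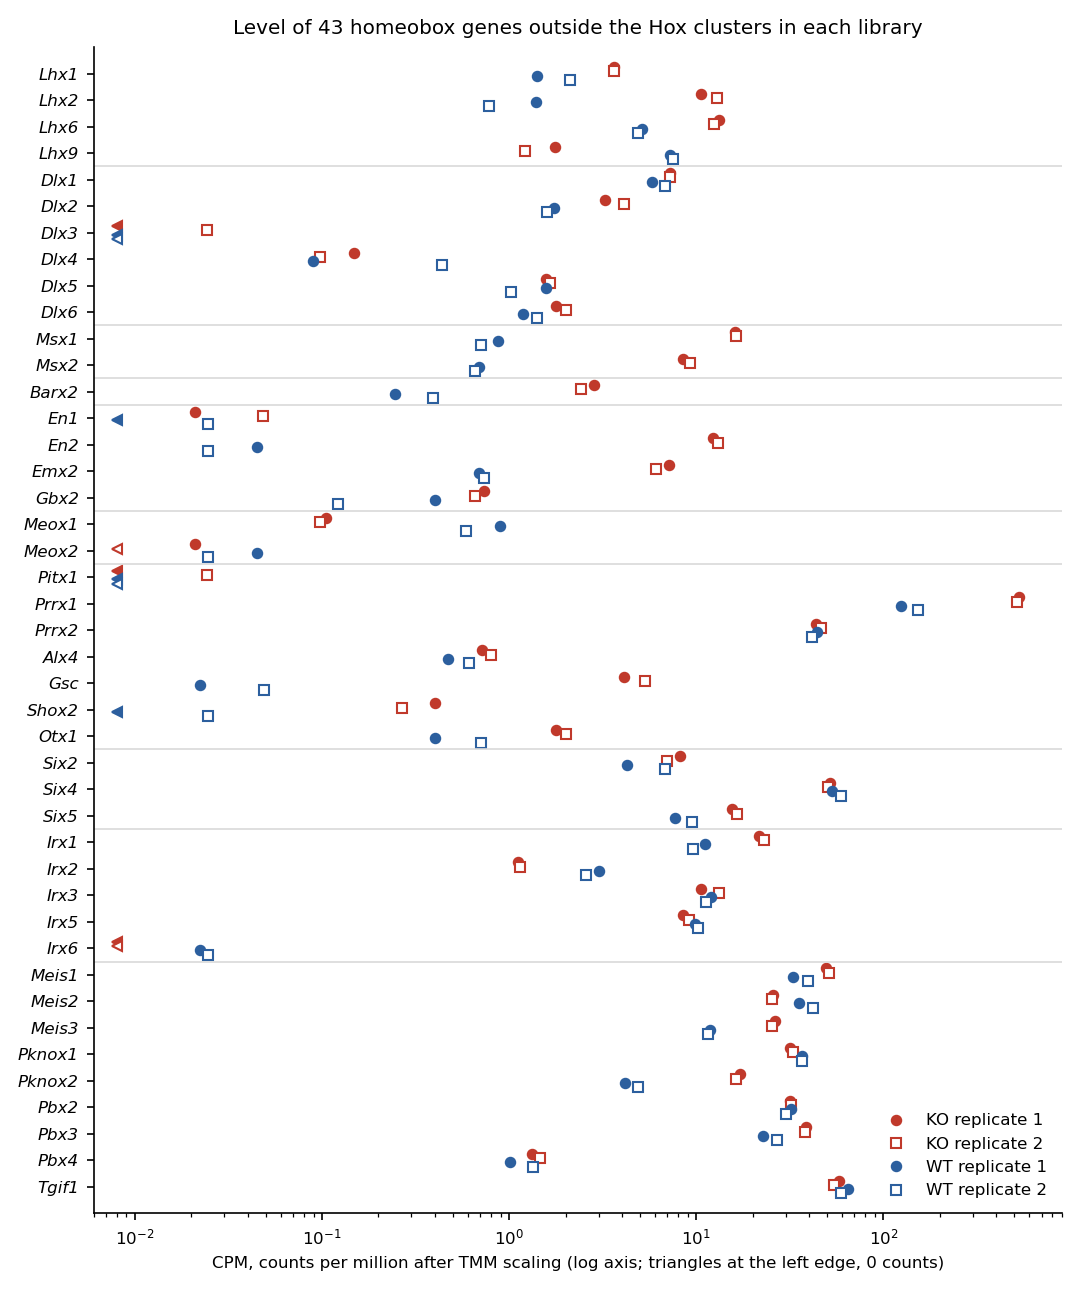
Level of the 43 members in each library, as CPM on a log axis, with KO replicates in red and WT replicates in blue, grey lines between families, and points offset vertically so that all 4 can be seen. *Prrx1* lies furthest right at 531 and 515 CPM in KO and 124 and 153 CPM in WT libraries, and for *En2*, *Gsc*, *Msx1* and *Msx2* the red points stand far to the right of the blue.

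Msx proteins repress transcription and keep limb and facial mesenchyme undifferentiated, downstream of BMP signals. *Msx1* (chr5:38211724-38215822 of mm9, the build of all gene positions here, minus strand) had 762 and 669 against 39 and 29 counts. Its mean level was 16.1 ± 0.140 CPM in KO and 0.789 ± 0.115 CPM in WT cells (SD, n = 2). *Msx2* (chr13:53562250-53568443, minus strand) had 405 and 380 counts in KO libraries and 31 and 27 in WT libraries. Both genes were low in each WT library and clearly expressed in each KO library. The log2 fold changes were 4.34 (SE 0.16, adjusted p = 5.89e-11) and 3.71 (SE 0.19, adjusted p = 1.15e-09). Per exon length, *Msx1* stood above *Msx2* by 2.39 and 2.24 times in KO libraries and by 1.60 and 1.36 times in WT libraries. With 8.29 and 8.39 RPKM *Msx1* was the eighth most abundant member in KO cells.

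*En2* (chr5:28492236-28500152, plus strand), which helps set up the midbrain and cerebellum, had 583 and 539 against 2 and 1 counts. It was next to absent from WT cells and reached 2.46 and 2.62 RPKM in KO cells. The ratio of its summed counts was 361, with an exact 95% counting interval of 123 to 1755 (edgeR adjusted p = 2.42e-11). Its paralog *En1*, a marker of ventral limb ectoderm and of the midbrain, stayed at 0 to 2 counts in every library and was not tested. Intervals of this kind cover counting error only.

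*Emx2*, needed for the forebrain, the urogenital tract and the scapula, had 339 and 252 against 31 and 30 counts. The levels were 6.62 ± 0.720 CPM in KO and 0.712 ± 0.0284 CPM in WT cells (SD, n = 2), with no overlap between genotypes (log2 fold change 3.22, SE 0.20, adjusted p = 9.58e-09). *Gbx2*, which places the border between midbrain and hindbrain, had 35 and 27 against 18 and 5 counts (log2 fold change 1.38, SE 0.46, adjusted p = 0.0165). Its call was lost with DESeq2 in place of edgeR, without either KO replicate and without WT replicate 2. Over the alternatives its log2 fold change ran from 0.76 to 2.48. On the opposite strand *Gbx2* overlaps *D130058E05Rik*, which had 137 and 120 against 21 and 9 counts, and since it is not stated whether counting used the strand, reads of the pair cannot be told apart. *Barx2*, known from muscle and limb cartilage, had 135 and 100 counts in KO libraries and 11 and 16 in WT libraries (log2 fold change 3.05, SE 0.29, adjusted p = 6.79e-07).

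The paired-like genes held both the most abundant member and some of the rarest. *Prrx1* (chr1:165175247-165243841, minus strand), a marker of limb and craniofacial mesenchyme, had 25245 and 21228 against 5567 and 6268 counts. That is 523 ± 11.4 CPM in KO and 139 ± 20.3 CPM in WT cells (SD, n = 2), a rise of 3.77 times (log2 fold change 1.92, SE 0.08, adjusted p = 2.96e-10). *Prrx2*, its close relative in the same mesenchyme, had 2073 and 1914 counts in KO libraries and 1986 and 1697 in WT libraries, and its libraries overlapped (log2 fold change 0.07, SE 0.07, adjusted p = 0.426). With library totals *Prrx2* was called higher (log2 fold change 0.22, adjusted p = 0.017), and without WT replicate 2 its sign turned. Per length *Prrx2* stood first in WT cells at 22.7 and 21.2 RPKM and *Prrx1* first in KO cells at 47.98 and 46.53 RPKM. Their ratio per exon length was 2.15 and 1.96 in KO and 0.494 and 0.651 in WT libraries. The noncoding *Gm17698*, on the same strand inside *Prrx1*, had 223 and 262 against 76 and 85 counts, and the reads of the pair may be split between them.

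*Gsc* (chr12:105709419-105711537, minus strand), a repressor of the organizer and later of the jaw mesenchyme, had 194 and 220 counts in KO and 1 and 2 in WT libraries. It was near the floor in both WT libraries, and the ratio of 133 had an exact 95% counting interval of 45.3 to 649 (edgeR adjusted p = 4.02e-09). *Shox2*, which shapes the proximal limb, had only 19 and 11 against 0 and 1 counts, a ratio of 29.0 with an interval of 4.82 to 1183 (edgeR adjusted p = 5.72e-04). Its identifier has no place in the annotation used here, so no level per length is given. *Otx1*, a gene of the forebrain and the sense organs, had 85 and 83 against 18 and 29 counts (log2 fold change 1.78, SE 0.29, adjusted p = 1.2e-04). *Alx4*, which limits the anterior limb bud, had 34 and 33 against 21 and 25 counts and did not pass the test (log2 fold change 0.49, SE 0.33, adjusted p = 0.207).

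All 4 tested LIM homeodomain genes passed the test, 3 higher and 1 lower, beside 34.3% higher and 32.5% lower over all tested genes. *Lhx2* (chr2:38194801-38225253, plus strand), which maintains limb outgrowth together with *Lhx9*, had 504 and 533 against 62 and 32 counts. *Lhx9* (chr1:140721763-140745153, minus strand) had 83 and 50 counts in KO libraries and 322 and 308 in WT libraries. The pair thus moved in opposite directions, with log2 fold changes of 3.42 (SE 0.21, adjusted p = 9.15e-09) and -2.30 (SE 0.19, adjusted p = 1.3e-07). Within a library, *Lhx2* per exon length was 10.8 and 19.0 times *Lhx9* in KO cells and 0.342 and 0.185 times *Lhx9* in WT cells. *Lhx6*, of jaw mesenchyme and interneurons, had 627 and 511 against 229 and 199 counts (log2 fold change 1.36, SE 0.12, adjusted p = 3.33e-07). *Lhx1*, of the head organizer and kidney, had 173 and 149 against 63 and 87 counts (log2 fold change 1.04, SE 0.21, adjusted p = 6.67e-04).

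**Figure D2:**
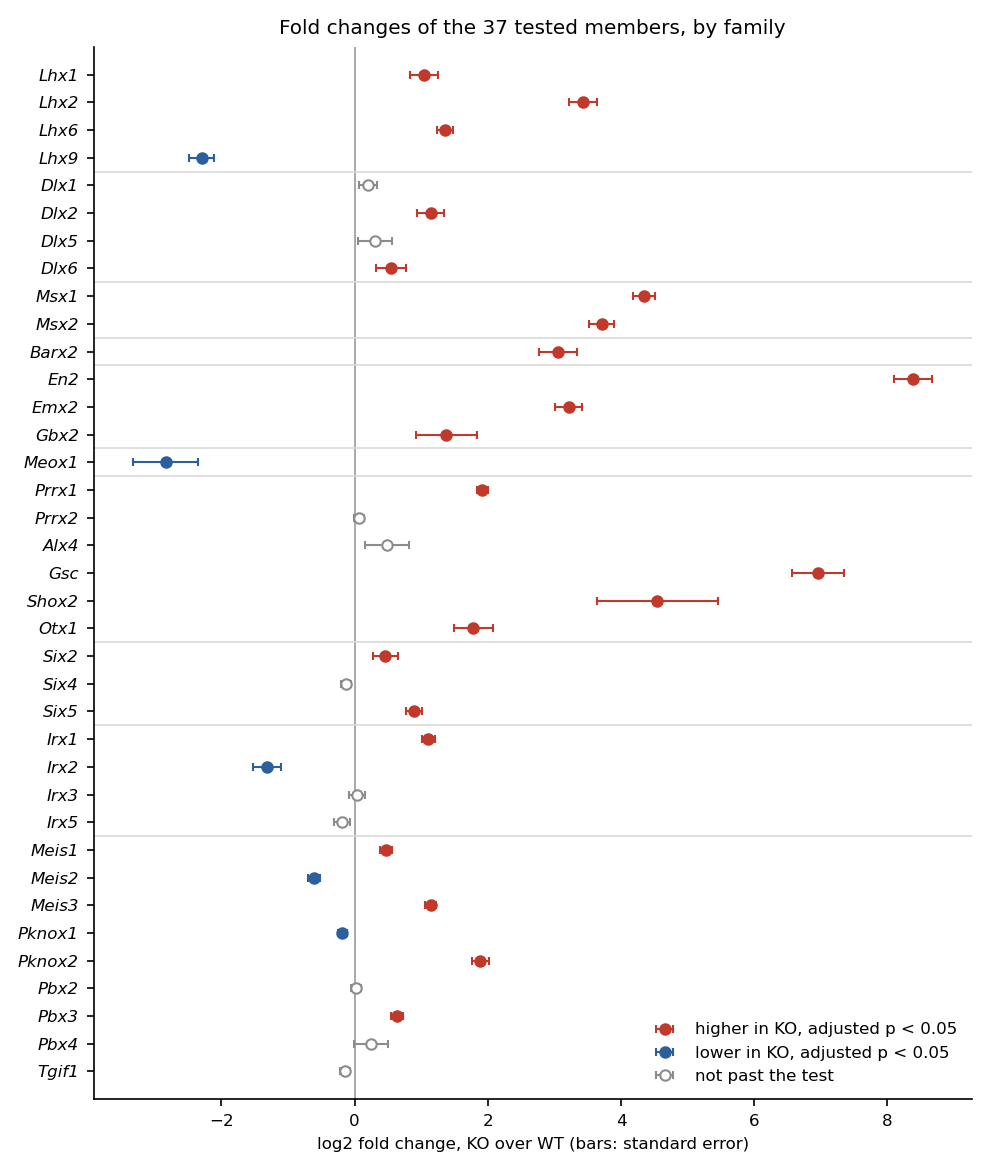
Log2 fold change of KO over WT for the 37 tested members, ordered by family, with bars of 1 standard error and colour for the call at an adjusted p of 0.05. The range runs from 8.39 for *En2* to -2.84 for *Meox1*. LIM and Irx genes, and the group of Meis, Pknox, Pbx and Tgif genes, have points on both sides of 0.

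The Dlx genes lie in pairs that point toward each other and act in jaw, limb and forebrain. *Dlx1* and *Dlx2* are 9427 bases apart on chromosome 2 of mm9, and *Dlx6* and *Dlx5* are 9236 bases apart on chromosome 6. *Dlx1*, the most abundant of them, had 343 and 299 against 260 and 279 counts and did not pass the test (log2 fold change 0.20, SE 0.14, adjusted p = 0.213), though it did with library totals (0.35, adjusted p = 0.0411). *Dlx2* had 155 and 170 against 78 and 65 counts and rose (log2 fold change 1.14, SE 0.20, adjusted p = 1.97e-04). The ratio of *Dlx1* to *Dlx2* per exon length was thus 1.17 and 0.930 in KO and 1.76 and 2.27 in WT libraries. *Dlx5* had 75 and 68 against 70 and 42 counts (log2 fold change 0.31, SE 0.25, adjusted p = 0.299), and was called higher only without WT replicate 1 (adjusted p = 0.0448). *Dlx6* had 85 and 83 against 53 and 58 counts at an adjusted p of 0.0473 (log2 fold change 0.55, SE 0.23), a call lost under 7 of 12 alternatives, among them leaving out either KO replicate or WT replicate 1 (adjusted p 0.109 to 0.242). Its opposite-strand transcript *Dlx6os1* had 164 and 149 against 88 and 105 counts.

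Irx proteins pattern limb, heart and neural tissue and lie in clusters. *Irx1*, the most abundant of them in KO cells, had 1022 and 953 counts in KO libraries and 499 and 391 in WT libraries (log2 fold change 1.11, SE 0.10, adjusted p = 5.08e-07). *Irx2*, 665073 bases away on chromosome 13, had 53 and 47 against 135 and 106 counts and fell (log2 fold change -1.31, SE 0.21, adjusted p = 1.02e-04). These neighbours moved apart, and the ratio of *Irx1* to *Irx2* per exon length was 30.9 and 32.5 in KO and 5.92 and 5.91 in WT libraries. *Irx3* and *Irx5*, 556141 bases apart on chromosome 8, did not pass the test, at log2 fold changes of 0.03 (SE 0.12, adjusted p = 0.817) and -0.19 (SE 0.11, adjusted p = 0.166). The sign of *Irx3* turned without KO replicate 2 or WT replicate 2.

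SIX-class proteins act with Eya phosphatases in muscle, kidney and sense organs. *Six4*, the most abundant of the 3, had 2467 and 2072 counts in KO libraries and 2367 and 2436 in WT libraries and did not pass the test (log2 fold change -0.14, SE 0.07, adjusted p = 0.126). Its sign turned with library totals, and without WT replicate 1 it was called lower (log2 fold change -0.22, adjusted p = 0.0118). *Six5* had 735 and 680 against 345 and 388 counts and rose (log2 fold change 0.90, SE 0.12, adjusted p = 1.63e-05). *Six2*, which keeps kidney progenitors, had 390 and 288 against 191 and 280 counts (log2 fold change 0.46, SE 0.19, adjusted p = 0.0459). In CPM its KO replicate 2 (6.99) lay just above WT replicate 2 (6.83). The call of *Six2* was lost with DESeq2 in place of edgeR, without either KO replicate and without WT replicate 1. Over the alternatives its log2 fold change ran from 0.15 to 0.80. *Meox1*, which acts in the sclerotome of the somites, had only 5 and 4 against 40 and 24 counts and fell (log2 fold change -2.84, SE 0.48, adjusted p = 1.47e-04).

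Among the 9 Meis, Pknox, Pbx and Tgif genes, all of them tested, 4 were higher, 2 were lower and 3 did not pass the test. The shares over all tested genes were 34.3% higher and 32.5% lower. *Tgif1*, a repressor that limits TGF-beta signals, was the most abundant of the 9 with 2759 and 2232 against 2878 and 2440 counts (log2 fold change -0.14, SE 0.07, adjusted p = 0.0935). Its sign turned with library totals, and without WT replicate 2 it was called lower (log2 fold change -0.23, adjusted p = 0.00708). *Meis3* had 1249 and 1042 against 529 and 474 counts and rose by a log2 fold change of 1.14 (SE 0.09, adjusted p = 7.84e-08). *Meis1*, a partner of Hox proteins that marks the proximal limb, had 2354 and 2111 counts in KO libraries and 1478 and 1622 in WT libraries (log2 fold change 0.47, SE 0.09, adjusted p = 2.82e-04). *Meis2*, of the same proximal field, had 1226 and 1041 against 1586 and 1731 counts and fell (log2 fold change -0.60, SE 0.09, adjusted p = 4.41e-05). Per exon length *Meis1* was 3.08 and 3.26 times *Meis2* in KO and 1.496 and 1.505 times in WT libraries.

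*Pknox2* had 813 and 669 counts in KO libraries and 185 and 200 in WT libraries and rose (log2 fold change 1.89, SE 0.12, adjusted p = 1.56e-08). *Pknox1*, like *Pknox2* a partner of Pbx proteins, had 1512 and 1351 against 1643 and 1503 counts (log2 fold change -0.18, SE 0.07, adjusted p = 0.0379). That small fall was lost under 7 of 12 alternatives, among them leaving out either KO replicate or WT replicate 1 (adjusted p 0.0587 to 0.201). *Pbx3* rose by 0.63 on the log2 scale (SE 0.09, adjusted p = 2.19e-05). *Pbx2* and *Pbx4* did not pass the test, at 0.02 (SE 0.08, adjusted p = 0.792) and 0.25 (SE 0.25, adjusted p = 0.409).

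**Figure D3:**
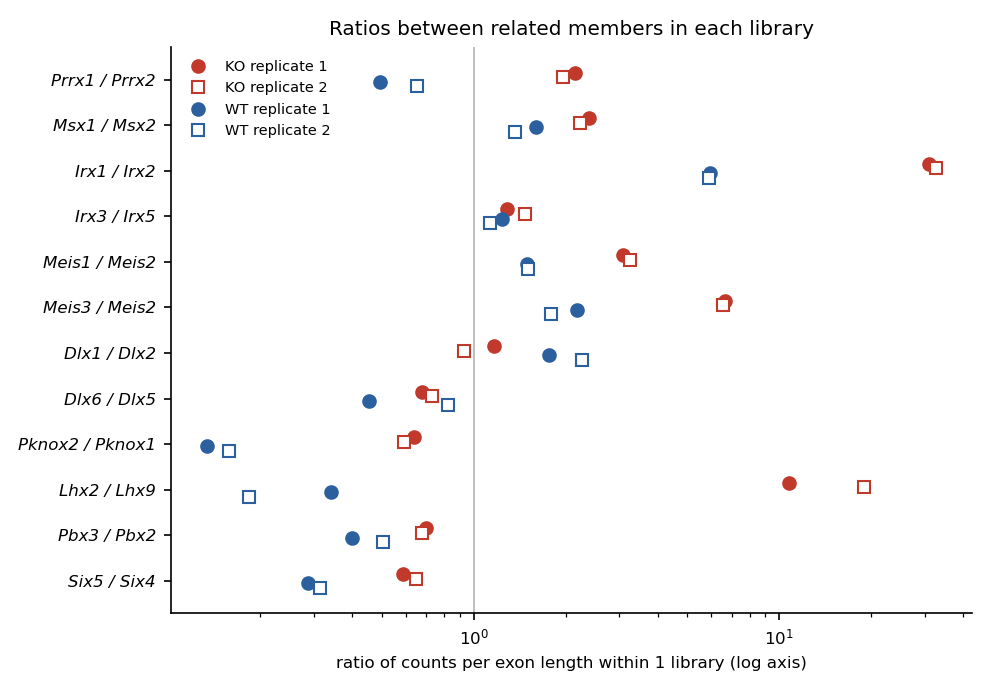
Ratio between related members within each library, per exon length and on a log axis, so that the ratio does not depend on how libraries were scaled. *Lhx2* to *Lhx9* and *Prrx1* to *Prrx2* lie on opposite sides of 1 in the genotypes, and the points of *Dlx6* to *Dlx5* overlap.

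Ratios within a library need no scaling between libraries. With 2 libraries against 2, an exact two-sided permutation test of a single ratio cannot give a p below 0.333. The ratios are therefore given as values, for pairs chosen with the members' values known.

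Summed over the 42 members with an annotated length, the level was 209.8 and 211.9 RPKM in KO and 127.5 and 130.8 RPKM in WT libraries. *Prrx1* made up 22.9 and 22.0% of this sum in KO and 8.81 and 10.6% in WT libraries. Without it the sums were 161.8 and 165.4 against 116.3 and 116.9 RPKM. Each KO sum was thus above each WT sum with and without *Prrx1*. At or above 1 RPKM there were 27 members in KO and 19 in WT cells, and at or above 10 RPKM 5 and 3. In KO cells the first 5 were *Prrx1*, *Prrx2*, *Tgif1*, *Meis3* and *Irx1* (47.3, 23.1, 16.7, 14.2 and 10.8 RPKM as means of 2 libraries). In WT cells they were *Prrx2*, *Tgif1*, *Prrx1*, *Six4* and *Pknox1* (22.0, 18.4, 12.5, 9.99 and 8.71 RPKM). The 2 WT libraries of *Six4* (9.40 and 10.6 RPKM) lay just above those of *Pknox1* (8.71 in each).

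**Figure D4:**
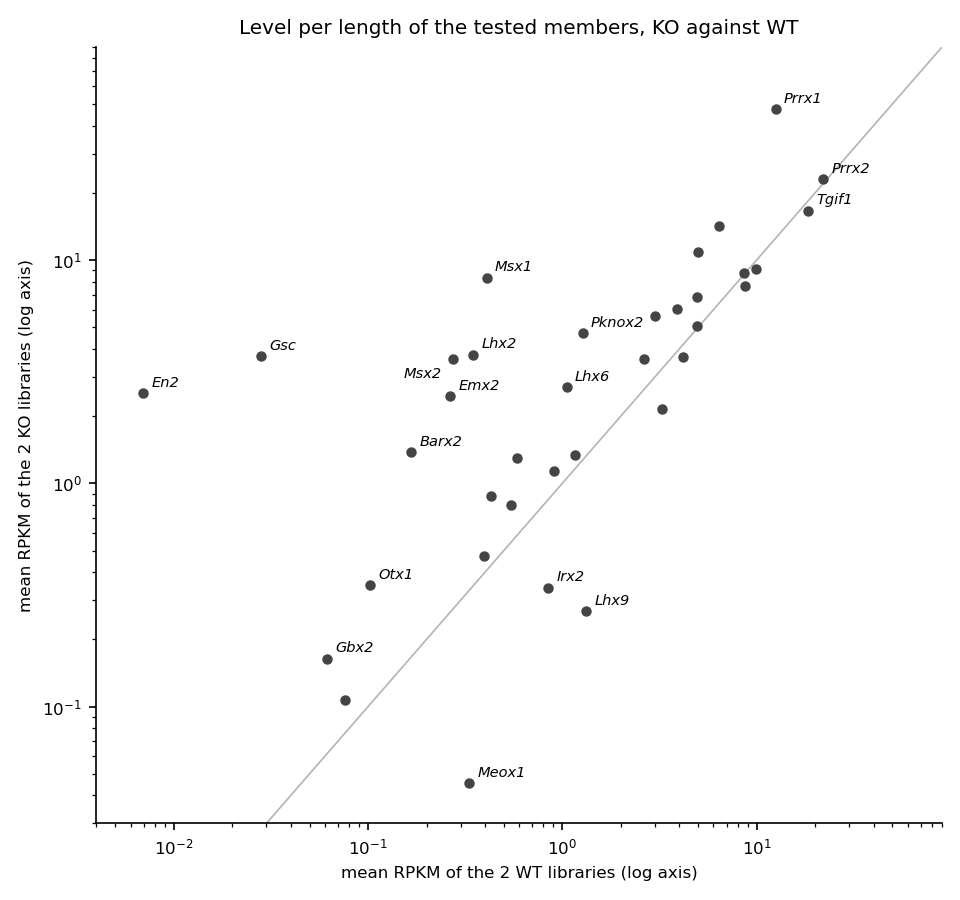
Mean RPKM of the 2 KO libraries against that of the 2 WT libraries for the 36 tested members with an annotated length, on log axes, with a grey line of equal level. Of the 3 points above 10 RPKM in WT cells only *Prrx1* lies far from the line, and the points furthest above the line are *En2* (2.54 against 0.00693 RPKM) and *Gsc* (3.72 against 0.0281 RPKM).

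RefSeq gave a promoter for 31 of the 48 members, including the 6 printed above. Among the 31 are *Lhx8*, *Isl1*, *Irx4* and *Barx1*, which have no RNA counts here, and *En1* and *Meox2*, which were not tested. The first listed promoter of the 31 held a median of 23 CpG in its 300 bases, and 90.3% held at least 10. The range ran from 4 in *Lhx8* to 50 in *Barx1*. Over the first promoters of 9861 tested genes the median was 21 and the share 81.2%. Of the 22 members that rose 15 had a promoter, with a median of 25 CpG, and of the 10 that did not pass the test 7, with a median of 20. Of the 5 that fell 3 had a promoter, with 25 (*Irx2*), 13 (*Meis2*) and 6 CpG (*Lhx9*). *En2* and *Barx2*, which rose, and *Meox1* and *Pknox1*, which fell, are among the members without a promoter here. The ranges overlapped: *Prrx1* rose with 6 CpG, and *Shox2*, which is not printed above and had few counts, rose with 11. *Prrx2* and *Pbx2*, with 28 and 29, did not pass the test.

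**Figure D5:**
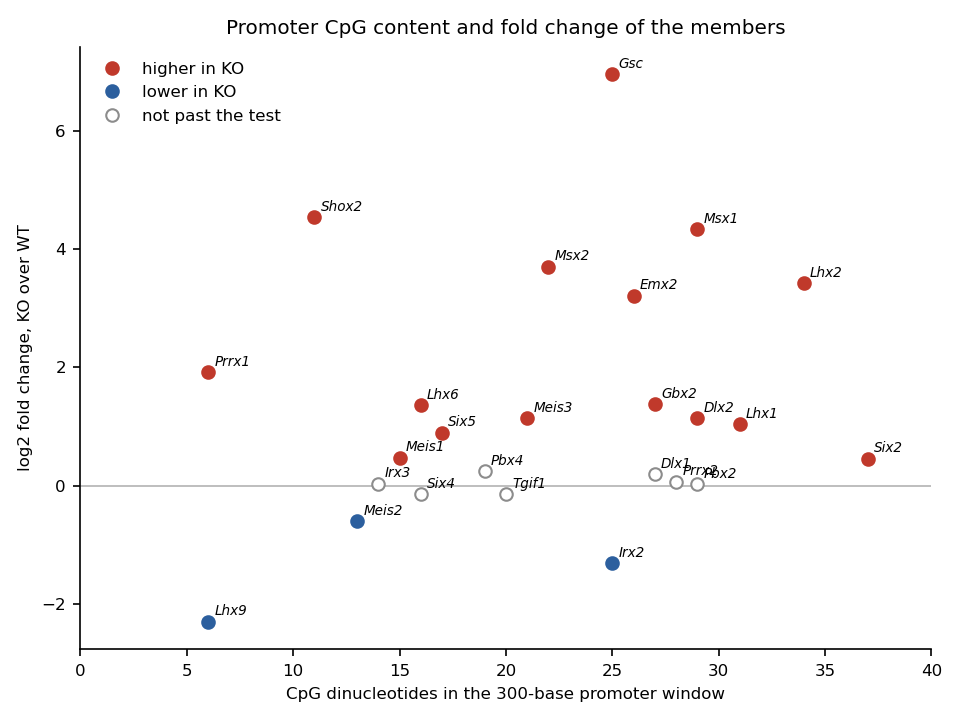
Number of CpG dinucleotides in the first listed 300-base promoter against the log2 fold change, for the 25 tested members with such a promoter, coloured by call. Members that rose run from 6 CpG (*Prrx1*) to 37 (*Six2*), and members not past the test lie between 14 and 29.

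Homeodomain core motifs were also searched in these windows on both strands, the 31 again including members that were not tested. The palindrome TAATTA was found in the promoters of *Emx2*, *Msx2* and *Prrx1* (9.68% of 31), against 2.47% of the tested genes' first promoters. The Meis and Tgif motif TGACAG was found in 5 of 31 (16.1%), against 16.3%. Neither motif contains the other or a CG, and a match only describes the letters.

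Of the 23 listed partners of these proteins, 20 were tested, of which 9 were higher and 10 lower, with a median log2 fold change of -0.21. Of all tested genes 34.3% were higher and 32.5% lower, shares that also stand beside the counts by kind of partner. With library totals 9 were higher and 6 lower, the calls of *Eya1*, *Eya4*, *Rlim* and *Ssbp4* being lost. Under that scaling 6628 of all 15538 tested genes were higher and 3964 lower. Among 6 genes of the Groucho family, which holds co-repressors that Msx and En proteins recruit, 5 were higher and 1 lower. *Tle2* had 2619 and 2445 against 605 and 735 counts (log2 fold change 1.87, SE 0.11, adjusted p = 5.32e-09), and *Tle6* and *Tle4* rose by 1.31 and 1.25 on the log2 scale. Of the 5 tested partners of SIX-class proteins 4 were lower and 1 did not pass the test, led by *Eya2* with 29 and 19 against 152 and 132 counts (log2 fold change -2.61, SE 0.24, adjusted p = 4.5e-07), and *Eya3* was at -0.79. The 8 LIM partners split evenly, 4 higher and 4 lower. *Ssbp3*, which binds LDB1, rose by 0.81, and the LIM-only genes *Lmo1* (30 and 18 against 204 and 130 counts) and *Lmo4* fell to log2 fold changes of -2.84 and -0.44.

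Of 132 further homeobox genes outside the clusters, 90 had a usable row and 41 were tested. In this rest of the class 19 were higher (46.3%, against 34.3% of all tested genes) and 8 lower (19.5%, against 32.5%), with a median log2 fold change of 0.34. Past the stricter limits 6 were higher and 2 lower, where 5.79% and 3.15% of all tested genes were. Of these, *Lmx1b*, *Cux2* and *Nkx2-1* passed the filter on low counts through the KO libraries alone and *Nkx6-1* through the WT libraries alone. For them the filter itself favoured a difference, so these counts are not a fair match to the shares over all genes. *Zfhx4* had 3065 and 2833 against 343 and 360 counts (log2 fold change 3.02), and *Vax2*, of the ventral eye, 224 and 229 against 31 and 33 (log2 fold change 2.77). *Lmx1b*, which sets dorsal identity in the limb, had 188 and 172 against 1 and 0 counts, a ratio of 348 (exact 95% counting interval 62.0 to 13780). *Nkx3-2*, a gene of cartilage and sclerotome, had 21 and 34 against 146 and 140 counts and fell (log2 fold change -2.42, SE 0.26, adjusted p = 2.6e-06).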

How the data were processed

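RNA from *Mbd4*-/- (KO) and *Mbd4*+/+ (WT) MEFs was freed of ribosomal RNA and made into stranded libraries by the authors. They aligned reads to mm9 with TopHat2 and Bowtie and deposited raw counts per Ensembl gene from HTSeq 0.5.4p3 (versions per the labels); CASAVA 1.8.2 is also named. Whether counting used the strand is not stated in these sources. The table also holds normalized values and the authors' log2 ratios and p-values, which were not used.

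Groups follow the sample titles. The counts, 39108275 to 47567835 per library over 23537 genes, were tested with edgeR 4.0.16 under R 4.3.3 (filterByExpr, TMM, glmQLFit and glmQLFTest, genotype as the only term, Benjamini-Hochberg over 15538 genes). The limits were 0.05 for the adjusted p, or 0.01 together with a log2 fold change beyond 2 in either direction. A standard error is the size of the log2 fold change over the square root of F, on 2 residual degrees of freedom before moderation. The scripts were tested on simulated counts. Genes were placed with GENCODE M1 of mm9, which holds 23393 of the identifiers; RPKM use the union of exons. Promoters are RefSeq's on GRCm38.p6, 31 of 48 members matching by symbol, and no coordinates were converted. Where 1 to 3 counts made up a group, its ratio has an exact 95% binomial interval (scipy 1.17.1, Python 3.11.15), which covers counting error only.

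The members, the lists of partners, further homeobox genes and markers, and the naming rule were chosen with earlier results of these data known. Values per library are given for members past the stricter limits, for the most abundant member of each family, and for related pairs called in opposite directions. Of the partners and further homeobox genes up to 4 per direction with the largest change are named, with a mean of at least 1 CPM. Further homeobox genes past the stricter limits that passed the filter through 1 genotype alone are named as well. An item that this rule would name is not reported here. The other members are accounted for by family, and genes that overlap a member are named where a result turns on them. The pairs whose ratios are given were chosen with the members' values known. Alternatives were RLE, upper quartile and library-total scaling, no filter or at least 10 counts in every library, DESeq2 1.42.0, limma-voom (limma 3.58.1), the replicate number as a block, leaving out each library, and leaving out members that overlap another gene. Replicates differed by more than counting noise, the chi-square per gene being 6.08 between KO and 12.7 between WT libraries.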

Additional observations from a re-analysis of the deposited data

How the results depend on the processing

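Of the 27 called members, 23 kept their direction and their call under each of the 12 alternatives that kept them among the genes tested, the exceptions being *Dlx6*, *Pknox1*, *Gbx2* and *Six2*. Of 438 fold changes recomputed for the members, 405 stayed on the same side of the threshold, 22 lost the call, 5 gained it and 6 turned sign, none of them called in either setting. Leaving out 1 library left 1 sample in that genotype, so the number of members called by each such fit is not given. The sign turned for *Irx3* (-0.13 to 0.19 over the libraries left out), *Pbx2* (-0.054 to 0.067) and *Prrx2* (-0.013 to 0.118), in each without WT replicate 2 and in *Irx3* also without KO replicate 2, and with library totals for *Six4* (0.012) and *Tgif1* (0.0072). Without members that overlap another gene, and without *Shox2*, whose overlaps are unknown, 14 were higher and 3 lower, since fewer were counted. In the same fit 34.3% of all tested genes were higher and 32.5% lower. With at least 10 counts in every library 5 were higher and 1 lower past the stricter limits, since members near 0 in a genotype drop out. The share of all 13855 genes tested there that passed these limits was not counted. At an adjusted p of 0.05, 4817 of those genes were higher and 4630 lower. With library totals 6 partners were lower instead of 10, and the calls over all genes moved from 51.4% to 62.6% higher.

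The samples were not treated as pairs by replicate number. The deviations of same-numbered samples correlated at -0.0287 over genes. That value shows no shift shared by same-numbered samples, but it cannot tell whether they were prepared together. With the number as a replicate block 21 members were higher and 4 lower, with *Dlx6* and *Pknox1* no longer called (adjusted p 0.0617 and 0.0595). In that fit 5299 of all 15538 tested genes were higher and 4999 lower. *Dlx4*, *Dlx3*, *En1*, *Meox2*, *Pitx1* and *Irx6* lay below the filter on low counts in both genotypes, and whether they differed was not tested in the comparison reported.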
